A study of Mus musculus with 12 samples.

Results

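The 40 genes described here encode 3 families of pre-mRNA splicing factors: 11 SR proteins, 20 hnRNPs and 9 subunits of the SF3A and SF3B complexes. They were taken by name from the 24553 gene entries of the deposited tables, as every symbol that begins with Srsf and a digit, with Hnrnp, or with Sf3a or Sf3b, and no measured value entered the choice. Hnrnpa1 and Hnrnpa3 each share their entry with a predicted gene (Gm5643 and Gm6793), so their values cannot be split from it. Expression was measured in 12 mouse libraries in 4 groups of 3: normal liver of wild-type (WT) mice, normal liver of Setd2 knockout (KO) mice, WT liver tumors and KO liver tumors. Normal liver was taken from male mice of 8 months without carcinogen treatment. Tumors had been induced in males by 1 intraperitoneal dose of the carcinogen diethylnitrosamine (DEN), 25 mg/kg, when 2 weeks old, and the mice were killed after a further 8 months. Setd2 encodes the enzyme that trimethylates lysine 36 of histone H3 (H3K36me3) along transcribed genes. The sample titles use cKO, an abbreviation that commonly stands for conditional knockout, and name no Cre driver, deleted exon or targeted cell type. Nothing in the labels says whether the 3 libraries of a group are 3 animals, so the p-values reflect only the spread between these libraries, which may be technical.

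SR proteins bind short exon sequences through RNA recognition motifs and recruit the splicing machinery through a domain rich in arginine and serine, which SR kinases phosphorylate. The hnRNPs are a mixed group of RNA-binding proteins that coat nascent transcripts and often repress, but can also promote, the use of a splice site. SF3A and SF3B are parts of the U2 snRNP, the particle that recognises the branch point of an intron. Many SR and hnRNP genes limit their own output through alternative exons that send the transcript to decay, and H3K36me3 is read by proteins that can bring splicing factors to chromatin. The deposited tables give 1 value per gene, so isoforms were not resolved.

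Values are in FPKM, the number of fragments of a gene divided by its transcript length and by all mapped fragments. The files hold no read totals, and the depth behind a value is unknown. FPKM of all entries summed to between 641848 and 719538 in the 6 normal livers and to between 423498 and 626303 in the 6 tumors. The KO tumors were the least alike, with a Pearson's r between libraries, across genes, of 0.924 to 0.942, against 0.982 to 0.986 between WT livers. Setd2 itself stood at 4.84, 3.84 and 4.70 FPKM in WT liver and at 1.66, 1.93 and 1.32 in KO liver, a log2 difference of -1.05 ± 0.14 (SE; limma adjusted p = 0.0108). In tumors it stood at 4.402, 3.61 and 4.07 in WT and at 3.14, 2.18 and 1.90 in KO, groups that did not overlap (-0.57, adjusted p = 0.188, above the threshold of 0.05). The summed FPKM of 12 hepatocyte markers was 35026 to 41388 in WT liver, 27716 to 36283 in KO liver, 37669 to 46008 in WT tumors and 14938 to 29104 in KO tumors. The sums weigh the most abundant markers most. Taken marker by marker on the log2(FPKM + 1) scale, 11 of 12 were lower in WT tumors than in WT liver and 1 was higher (median difference -0.82). In KO tumors against KO liver, 11 were also lower and 1 higher (median -1.23). No hepatocyte marker was at 0 in all libraries.

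All differences below are on the log2(FPKM + 1) scale with the SE from limma, and a gene counts as called at an adjusted p below 0.05 over the 11671 entries tested, those with an FPKM of 1 or more in at least 3 libraries. Of the 40 genes, 39 were tested. The other was Srsf12, whose highest value in any library was 0.0623 FPKM. The tested genes spanned a wide range of levels. Hnrnpa2b1, which encodes an hnRNP that binds and sorts many transcripts, had the highest mean over the 12 libraries at 220.04 FPKM and made up 26.6% of the summed hnRNP signal. Hnrnpab followed at 78.8, Srsf5 at 73.7, Hnrnpu at 73.5, Hnrnpk at 72.6 and Hnrnpl at 68.5 FPKM. The lowest tested genes were Hnrnpr at 2.89 and Hnrnpa3 at 4.17 FPKM. Among the SF3 genes the means ran from 5.67 (Sf3a1) to 36.6 FPKM (Sf3b5), although the encoded proteins work in shared complexes. The steadiest gene was Hnrnpab, whose highest library was 1.26 times its lowest, and the most variable tested gene was Hnrnpd at 3.15 times.

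The members' promoters were read from RefSeq (GRCm38.p6; 250 bases before to 50 after the annotated start), where 36 of the 40 genes had an entry. Their median GC content was 63.3%, against 52.7% over 27025 promoters, and their median number of CpG was 27.5 against 7. The letters CCAAT (the NF-Y box), searched on both strands, were found in 18 of the 36 promoters (50%) against 38% of all. CCGGAAG (a core of the ETS motif) was found in 12 (33.3%) against 9.14%. The TATA box letters, TATAAA, were found in 5 (13.9%) against 14.2%, AAGATGGC (a YY1 core) in 2 (5.56%) against 2.87%, and CGCATGCG (an NRF1 core) in 1 (2.78%) against 1.92%. A match describes letters and not a bound site. The promoters of the members with the largest fall and the largest rise in KO liver, Hnrnph2 and Hnrnpl, and of a pair of SF3B genes that moved in opposite directions, Sf3b3 and Sf3b6, are printed 5′ to 3′ on the strand of the gene, with matches to the 5 motifs in capitals. They lie at chrX:134600929-134601228 (plus strand), chr7:28810640-28810939 (plus), chr8:110846754-110847053 (minus) and chr12:4817358-4817657 (plus).
Hnrnph2: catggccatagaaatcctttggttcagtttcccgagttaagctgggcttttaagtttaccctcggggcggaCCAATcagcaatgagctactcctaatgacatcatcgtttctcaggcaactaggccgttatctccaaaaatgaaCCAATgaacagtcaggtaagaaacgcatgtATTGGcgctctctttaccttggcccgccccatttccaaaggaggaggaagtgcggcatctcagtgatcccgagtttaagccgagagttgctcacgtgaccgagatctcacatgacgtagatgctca
Hnrnpl: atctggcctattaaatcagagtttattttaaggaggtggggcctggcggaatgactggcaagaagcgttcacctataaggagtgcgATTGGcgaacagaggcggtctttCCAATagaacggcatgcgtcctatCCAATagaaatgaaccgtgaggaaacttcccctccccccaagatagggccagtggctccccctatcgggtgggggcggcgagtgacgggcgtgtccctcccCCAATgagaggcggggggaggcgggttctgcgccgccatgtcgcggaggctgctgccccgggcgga
Sf3b3: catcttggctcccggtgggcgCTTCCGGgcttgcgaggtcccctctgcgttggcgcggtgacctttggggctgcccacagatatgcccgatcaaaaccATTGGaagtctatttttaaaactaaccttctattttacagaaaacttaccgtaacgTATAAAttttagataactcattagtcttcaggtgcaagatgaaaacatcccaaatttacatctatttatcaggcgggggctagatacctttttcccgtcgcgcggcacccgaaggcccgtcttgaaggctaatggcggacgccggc
Sf3b6: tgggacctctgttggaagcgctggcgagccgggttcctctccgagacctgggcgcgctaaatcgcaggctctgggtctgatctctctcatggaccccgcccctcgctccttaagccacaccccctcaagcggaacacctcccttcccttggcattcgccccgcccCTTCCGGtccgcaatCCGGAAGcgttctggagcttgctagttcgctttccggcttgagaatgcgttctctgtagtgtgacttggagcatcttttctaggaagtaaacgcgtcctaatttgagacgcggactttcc
The Hnrnph2 window holds 3 CCAAT matches and the Hnrnpl window 4, so both the gene that fell furthest and the gene that rose furthest have these letters in their window. The RefSeq start used for Hnrnpl lies inside the span that GENCODE gives the gene, so this window is not upstream of that whole span. The Sf3b3 window holds 1 match each to the NF-Y box, the ETS core and the TATA box, and the Sf3b6 window holds 2 to the ETS core.

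The first comparison asked what loss of Setd2 does to these genes in liver without a tumor. In KO normal liver 6 of the 39 tested genes were called lower than in WT (8.77% of all tested genes were) and 2 higher (9.33% of all), 8 in all, while 18.1% of all tested genes were called. The share called was thus near the background, and the direction was uneven: 31 of the 39 differences were negative, with a median of -0.19, against 5455 of 11671 and a median of 0.03 over all tested genes. In 18 of the 39 the 3 KO values lay wholly outside the 3 WT values (42.6% of all tested genes did), 15 below (20.7% of all) and 3 above (21.9% of all). By family, the hnRNPs had 17 of 20 differences below 0 (median -0.30; 3 called lower, 1 higher), the SF3 genes 7 of 9 (median -0.18; 2 lower, 1 higher) and the SR genes 7 of 10 (median -0.13; 1 lower, 0 higher). The members' FPKM together made up 0.194% to 0.210% of the library sum in WT liver and 0.167% to 0.172% in KO liver. This share was thus lower in every KO liver. By family, only the hnRNP sums were separate, at 865 to 945 FPKM in WT and 654 to 786 in KO liver. The SR sums (287 to 316 and 250 to 301) and the SF3 sums (167 to 187 and 155 to 184) overlapped.

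**Figure D1:**
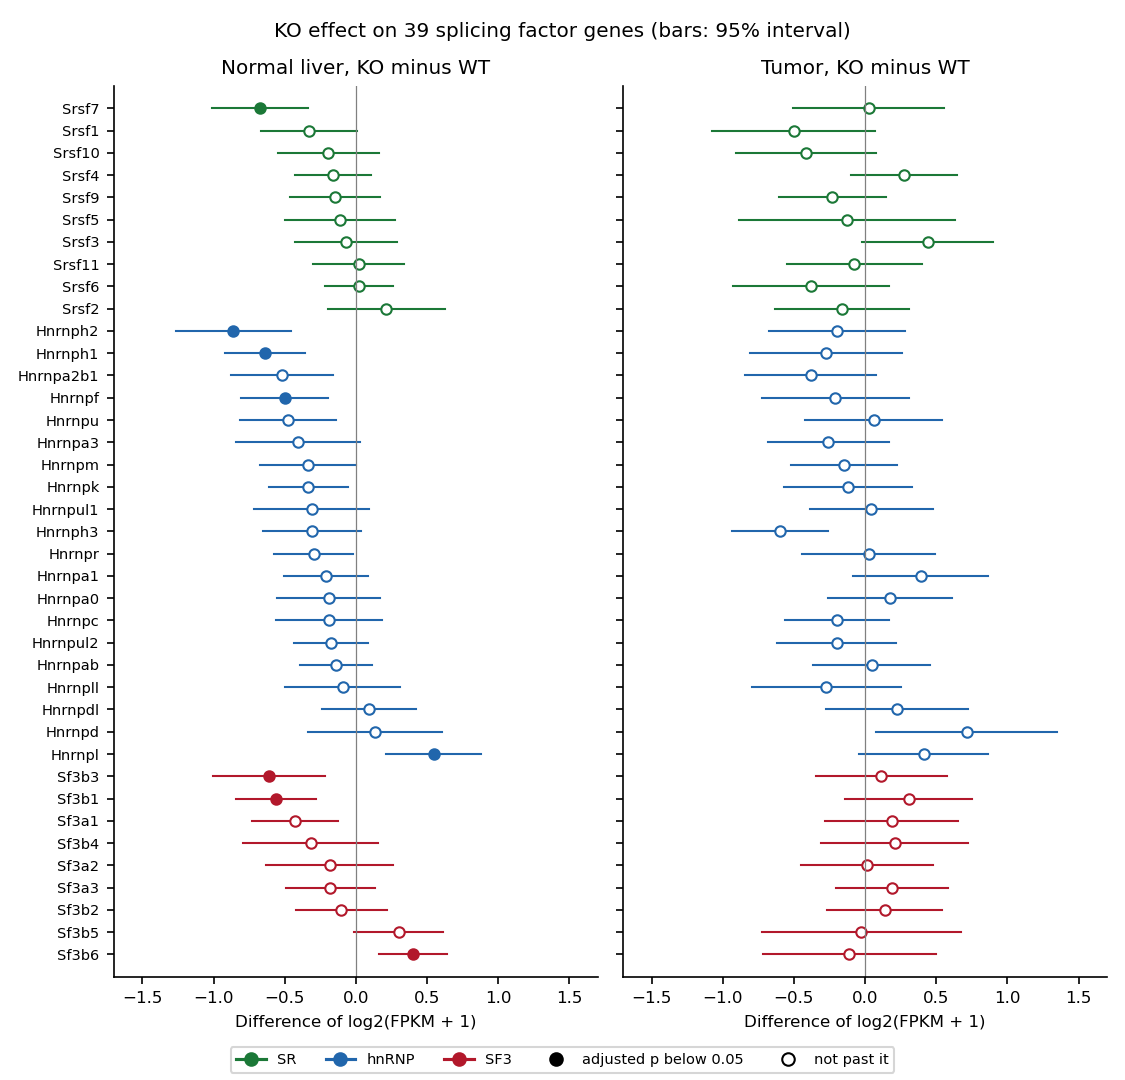
Difference of log2(FPKM + 1) between KO and WT for the 39 tested genes (rows, coloured by family) in normal liver (left) and in tumors (right), with 95% intervals from limma. In normal liver 31 of 39 points lie left of 0 and 8 are filled (called), while in tumors 20 of 39 lie left of 0 and none is filled.

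The hnRNP H and F proteins bind runs of guanines near splice sites, and their 4 genes are described together, a group that was picked out after the values were seen. All 4 had KO values wholly below WT in normal liver (20.7% of all tested genes did), with a median difference of -0.57, a description of a group chosen for this pattern. Hnrnph2 (GRCm38 chrX:134601179-134607060, plus strand) stood at 20.8, 21.01 and 27.0 FPKM in WT liver and at 15.0, 10.5 and 11.2 in KO liver. Its mean was 0.533 times the WT mean, and the difference of -0.86 ± 0.17 passed the test (adjusted p = 0.0226), the largest fall among the members. Hnrnph1 (chr11:50376990-50386528, plus strand) stood at 41.6, 52.3 and 45.7 in WT liver and at 31.1, 28.8 and 28.4 in KO liver (-0.64 ± 0.12, adjusted p = 0.0194). Every KO liver was thus at least 10 FPKM under the lowest WT liver. Hnrnpf (chr6:117900324-117925622, plus strand) stood at 23.9, 27.9 and 30.1 in WT and at 18.5, 17.5 and 20.99 in KO liver (-0.50 ± 0.13, adjusted p = 0.0419). Antisense genes cover 24.8% of the exonic bases of Hnrnpf, and the libraries do not keep the strand. Hnrnph3 stood at 11.5, 10.2 and 13.8 in WT and at 9.95, 8.20 and 9.88 in KO liver, a narrow gap whose difference of -0.31 ± 0.15 did not pass (adjusted p = 0.171). Hnrnph1, Hnrnph2 and Hnrnpf are similar in sequence, and how reads that match several genes were shared out is not given in the sources used here.

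One hnRNP gene was called higher. Hnrnpl (chr7:28808541-28822266, plus strand) encodes a protein that binds CA-rich RNA and is known to bind the SETD2 protein. It stood at 54.5, 47.2 and 46.1 FPKM in WT liver and at 70.0, 63.0 and 85.4 in KO liver, 1.48 times the WT mean (0.55 ± 0.14, adjusted p = 0.0419). All 3 KO livers were above all 3 WT livers. Its related gene Hnrnpll differed by -0.09 (adjusted p = 0.722). The most abundant member, Hnrnpa2b1, stood at 253.6, 248.1 and 291.9 in WT and at 224.4, 162.4 and 169.5 in KO liver. The groups did not overlap, but the difference of -0.52 ± 0.15 just missed the threshold (adjusted p = 0.0546). Hnrnpu, which encodes a chromatin-associated RNA-binding protein, had -0.47 (adjusted p = 0.0593), and Hnrnpk, a poly(C)-binding protein gene, -0.33 (adjusted p = 0.0862), both also with KO wholly below WT. Hnrnpa1 stood at 23.5, 26.1 and 28.1 in WT and at 25.0, 20.8 and 20.95 in KO liver, groups that overlapped (-0.21, adjusted p = 0.260).

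Among SR genes, 1 of 10 was called. Srsf7 (chr17:80200080-80207307, minus strand) encodes an SR protein with a zinc knuckle that also takes part in mRNA export. It stood at 35.7, 34.5 and 36.6 FPKM in WT liver and at 25.8, 22.6 and 18.1 in KO liver, 0.622 times the WT mean (-0.67 ± 0.14, adjusted p = 0.0251). The WT values were close together and every KO value was lower. Srsf1, the founding SR protein gene, stood at 18.0, 16.1 and 20.0 in WT and at 12.02, 14.8 and 15.7 in KO liver, without overlap (-0.33 ± 0.14, adjusted p = 0.138). Srsf2 stood at 42.9, 46.0 and 43.7 in WT and at 39.5, 54.6 and 63.1 in KO liver, with 1 KO value below all WT values and the others above (0.21, adjusted p = 0.400). Srsf3 stood at 19.7, 20.4 and 19.3 in WT and at 17.8, 15.9 and 23.5 in KO liver (-0.07, adjusted p = 0.765). Srsf5, the most abundant SR gene, stood at 84.8, 72.7 and 60.5 in WT and at 56.8, 76.0 and 68.1 in KO liver (-0.11, adjusted p = 0.644). For these 3 SR genes the groups overlapped, with 95% intervals from -0.20 to 0.63 for Srsf2, -0.43 to 0.29 for Srsf3 and -0.50 to 0.28 for Srsf5.

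The SF3 genes did not move as a block. Sf3b1 (chr1:54985169-55027481, minus strand) encodes the largest SF3B subunit, which clamps the branch point helix. It stood at 22.1, 21.4 and 26.0 FPKM in WT liver and at 16.4, 15.0 and 14.6 in KO liver, 0.663 times the WT mean (-0.56 ± 0.12, adjusted p = 0.0264). Sf3b3 (chr8:110810239-110846787, minus strand), the gene of a scaffold subunit, stood at 13.8, 19.7 and 14.4 in WT and at 10.3, 8.68 and 11.2 in KO liver (-0.61 ± 0.17, adjusted p = 0.0472). Both genes were lower in every KO liver than in any WT liver. Sf3b6 (chr12:4817544-4827659, plus strand), the gene of the small subunit that contacts the branch point adenosine, stood at 26.1, 27.6 and 27.8 in WT and at 34.2, 38.7 and 35.8 in KO liver. It was higher in every KO liver, 1.33 times the WT mean (0.40 ± 0.10, adjusted p = 0.0402). Sf3b5, another small subunit, stood at 30.1, 34.4 and 32.9 in WT and at 37.6, 36.3 and 47.5 in KO liver, also without overlap (0.30 ± 0.13, adjusted p = 0.148). Sf3a1, the gene of an SF3A subunit, had -0.43 ± 0.13 (adjusted p = 0.0581).

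**Figure D2:**
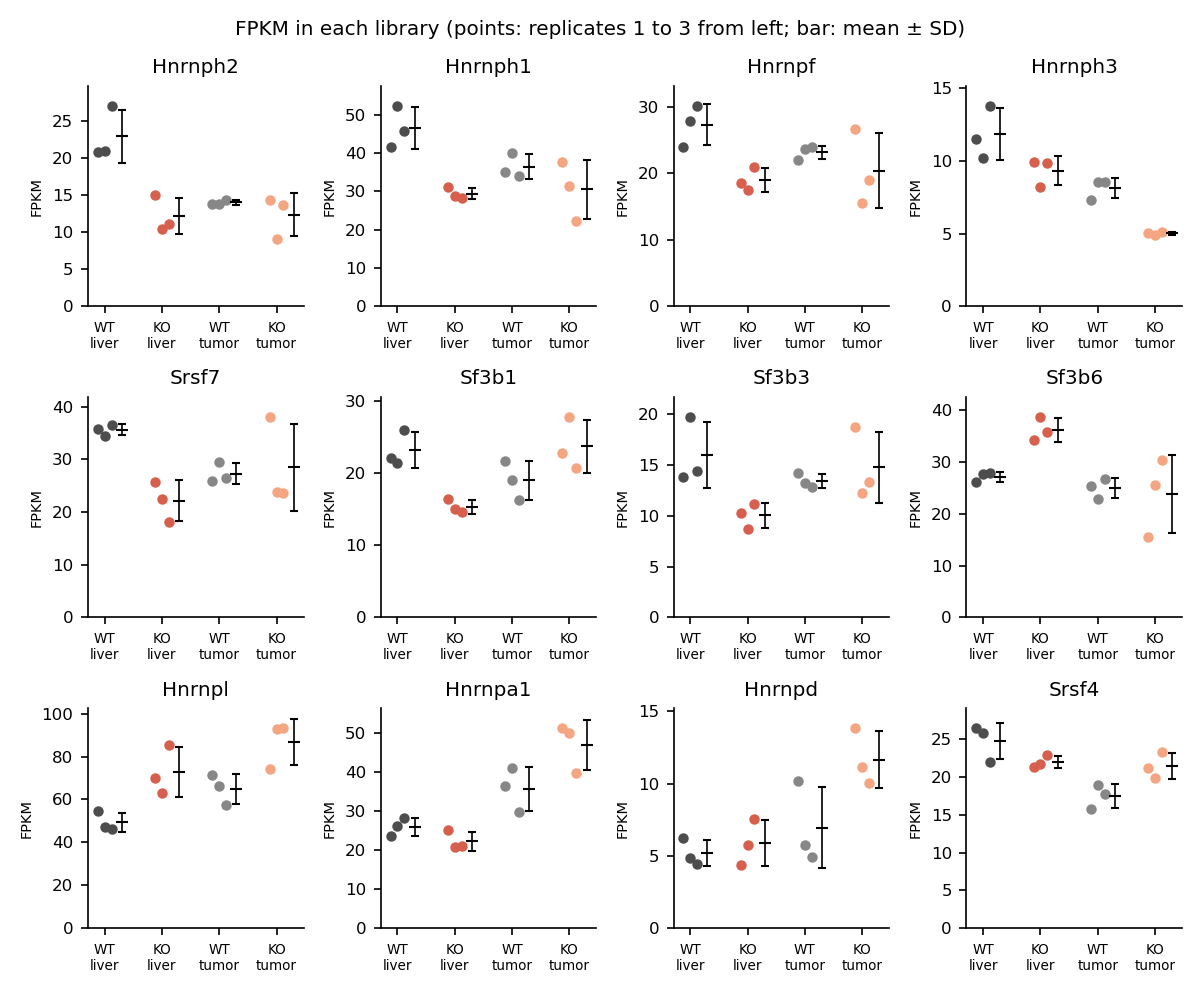
FPKM (vertical axes from 0) of 12 genes in each library, 3 points per group with the mean and SD as a bar. In Hnrnph2, Hnrnph1, Hnrnpf, Srsf7, Sf3b1 and Sf3b3 every KO liver lies below every WT liver, and in Sf3b6 and Hnrnpl every KO liver lies above.

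Differences between KO and WT liver also moved with transcript length. Over 10964 tested genes with an annotated length, Spearman's rho between length and the difference was -0.331, against -0.034 for the same comparison in tumors. These correlations are across genes of the same libraries and describe them. Over the 39 members rho was -0.182. Lengths are those of GENCODE and may differ from those of the gene models the authors used, which are not known here (Sf3b5 has 3841 bases in GENCODE), so this value and those with the length trend removed depend on that annotation. Sf3b6 has a median annotated transcript of 1180 bases and was higher, while Sf3b1 (6195 bases) and Sf3b3 (4525 bases) were lower. With each library's trend with length removed, 6 members were called, 1 higher and 5 lower. Over all 10964 genes with a length, 1414 were called with the trend removed, against 2016 before. Sf3b6 then had 0.22 (adjusted p = 0.188), Sf3b1 -0.36 (0.0688) and Sf3b3 -0.45 (0.121), all short of the threshold. Hnrnph2 (-0.85, adjusted p = 0.0254), Hnrnph1 (-0.65, 0.0222), Srsf7 (-0.78, 0.0245), Hnrnpf (-0.50, 0.0458) and Hnrnpl (0.52, 0.0486) passed it, as did Hnrnpa2b1 (-0.63, 0.0450). The share of the length relation in the remaining values was not tested.

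**Figure D3:**
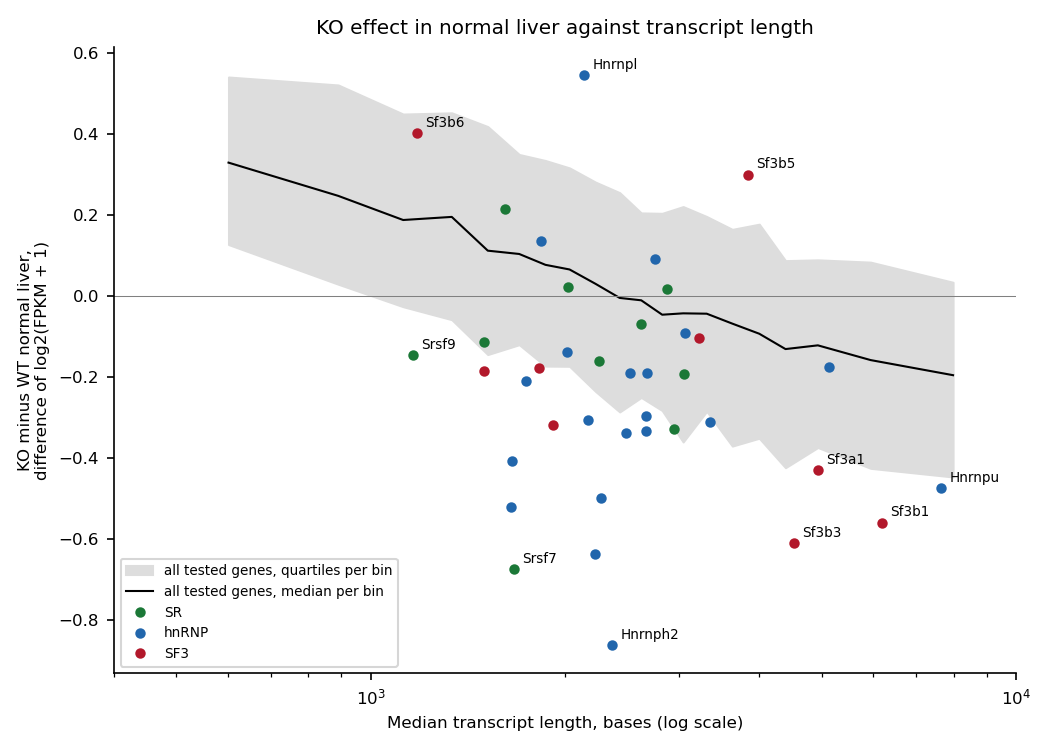
Difference of log2(FPKM + 1) between KO and WT normal liver against median annotated transcript length (log axis); points are the 39 members coloured by family, the black line and grey band are the median and quartiles of all tested genes in 20 bins of length. The median of all genes goes from 0.33 in the shortest bin to -0.20 in the longest, and Hnrnph2, Srsf7, Hnrnpl, Sf3b1 and Sf3b3 lie outside the band.

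Calls in normal liver rested on having all 6 libraries. The count of 8 was 2 without WT liver 1, 5 without KO liver 1, and 0 without WT liver 2, WT liver 3, KO liver 2 or KO liver 3. The direction was less affected, as between 30 and 32 of the 39 differences were negative when any 1 library was left out. Under rescaling of each library to a common FPKM sum (TPM) the calls were 0 higher and 8 lower, and under quantile normalization 1 higher and 9 lower. Sf3b6 then had 0.39 (adjusted p = 0.0644) and 0.34 (0.0615), and Hnrnpl 0.54 (0.0512) and 0.46 (0.0420). The share of all tested genes called under these scalings is not given here, so the counts of members have no background beside them. Markers of other cells and of hepatocytes also differed between these livers. Of the 12 hepatocyte markers, whose sums are given above, 11 had a negative difference (median -0.44), with 3 called lower and 1 higher. For stellate cells and fibroblasts, the summed FPKM of 12 markers was 60.1 to 91.5 in WT and 97.3 to 162.7 in KO liver, 2 of 12 were called higher, and none of the 12 was at 0 in all libraries. Their part in the members' differences was not tested, and in bulk tissue fewer cells of a type and less RNA per cell cannot be told apart.

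Other splicing genes, listed by function, also had mostly negative differences in KO normal liver, except the Sm genes. Of 10 SR protein kinase and import genes only 6 were negative, with 1 called lower and 2 higher (median -0.02). Of 15 nonsense-mediated decay genes, 9 were negative, with 1 called lower and 0 higher (median -0.13). Counts called lower stand against 8.77% of all tested genes, and counts called higher against 9.33%. Of 32 tested regulators outside the 3 families, 24 differences were negative, and 10 were called lower and 0 higher (median -0.21). Those with the smallest adjusted p were Fubp1 (-1.16, adjusted p = 0.00837), Sfpq (-0.81, 0.0185) and Rbm10 (-0.60, 0.0221), genes of RNA-binding splicing regulators. Of 17 further genes of the U1 and U2 snRNPs and U2AF, 11 were negative, with 4 called lower and 0 higher (median -0.11), led by Dhx15 (-0.94, adjusted p = 0.0129), a helicase gene, Sf1 (-0.72, 0.0165), the gene of the first branch point binding protein, and Smndc1 (-0.56, 0.0255). Of 24 genes of the tri-snRNP and Prp19 complex, 17 were negative, with 4 called lower and 0 higher (median -0.15), led by the helicase genes Dhx38 (-0.61, 0.0274), Dhx8 (-0.54, 0.0310) and Aqr (-0.48, 0.0360). Of 15 SR-related genes, 11 were negative, with 2 called lower and 0 higher (median -0.30): Srrm2 (-0.42, 0.0366) and Pnn (-0.52, 0.0405). The 7 Sm genes, whose short proteins form the ring of the snRNPs, had no call and a median of 0.19. At an unadjusted p below 0.05 by limma there were 2 of them, against 4386 of all 11671 tested genes. The part of the length relation in the values of these lists was not tested.

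The same contrast was then made in tumors. None of the 39 genes was called between KO and WT tumors by limma, where 0.0771% of all tested genes were called. At an unadjusted p below 0.05 there were 2 members (17.6% of all tested genes), and 20 of 39 differences were negative with a median of -0.03, against 0.02 over all. Groups did not overlap for 8 members, 5 below (10.1% of all) and 3 above (13.8% of all), against 23.9% of all tested genes. Hnrnph3 had the smallest p: it stood at 7.33, 8.54 and 8.58 FPKM in WT tumors and at 5.03, 4.94 and 5.13 in KO tumors, 0.618 times the WT mean (-0.60 ± 0.14, adjusted p = 0.117). The 3 KO tumors were nearly equal and all lower. Hnrnpd, which encodes the AU-rich element binding protein AUF1, stood at 10.2, 5.78 and 4.92 in WT and at 13.8, 11.1 and 10.01 in KO tumors, with 1 WT tumor inside the KO range (0.71 ± 0.27, adjusted p = 0.239). The 95% intervals were wide: that of Sf3b1 ran from -0.14 to 0.75 and that of Hnrnph2 from -0.67 to 0.28.

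The 8 genes called in normal liver did not share 1 pattern in tumors. Sf3b1 stood at 21.6, 19.0 and 16.3 FPKM in WT tumors and at 22.8, 27.8 and 20.6 in KO tumors (0.31 ± 0.19, adjusted p = 0.452). Srsf7 stood at 25.9, 29.5 and 26.4 in WT and at 38.0, 23.8 and 23.6 in KO tumors, where KO tumor 1 was above and the other KO tumors below all WT values. Sf3b6 stood at 25.3, 22.9 and 26.7 in WT and at 15.6, 25.5 and 30.3 in KO tumors. The KO tumor values of Srsf7 and Sf3b6 thus reached both above and below all WT tumors. Hnrnpl stood at 71.2, 66.4 and 57.2 in WT and at 74.4, 92.8 and 93.3 in KO tumors, all KO above all WT as in normal liver (0.41 ± 0.19, adjusted p = 0.325). Hnrnph1 had -0.27, Hnrnph2 -0.19, Hnrnpf -0.21 and Sf3b3 0.11, each with overlapping groups.

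The KO effect in tumors minus that in normal liver was tested in 1 fit of all 12 libraries. No member was called (2.08% of all tested genes were), and 7 had an unadjusted p below 0.05 (22.3% of all). The median was 0.20 over the members and 0.02 over all tested genes. Sf3b1 had the smallest adjusted p, at 0.87 ± 0.21 (adjusted p = 0.0590), and in order of the size of the difference the others were Sf3b3 (0.72, 0.133), Srsf7 (0.70, 0.158), Hnrnph2 (0.67, 0.175), Sf3a1 (0.62, 0.144), Hnrnpa1 (0.60, 0.153) and Srsf4 (0.44, 0.177). Without KO tumor 3 there were 2 calls, and without WT tumor 1 there was 1. A difference between the tissues in the KO effect was therefore not shown for any single member with all libraries.

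**Figure D4:**
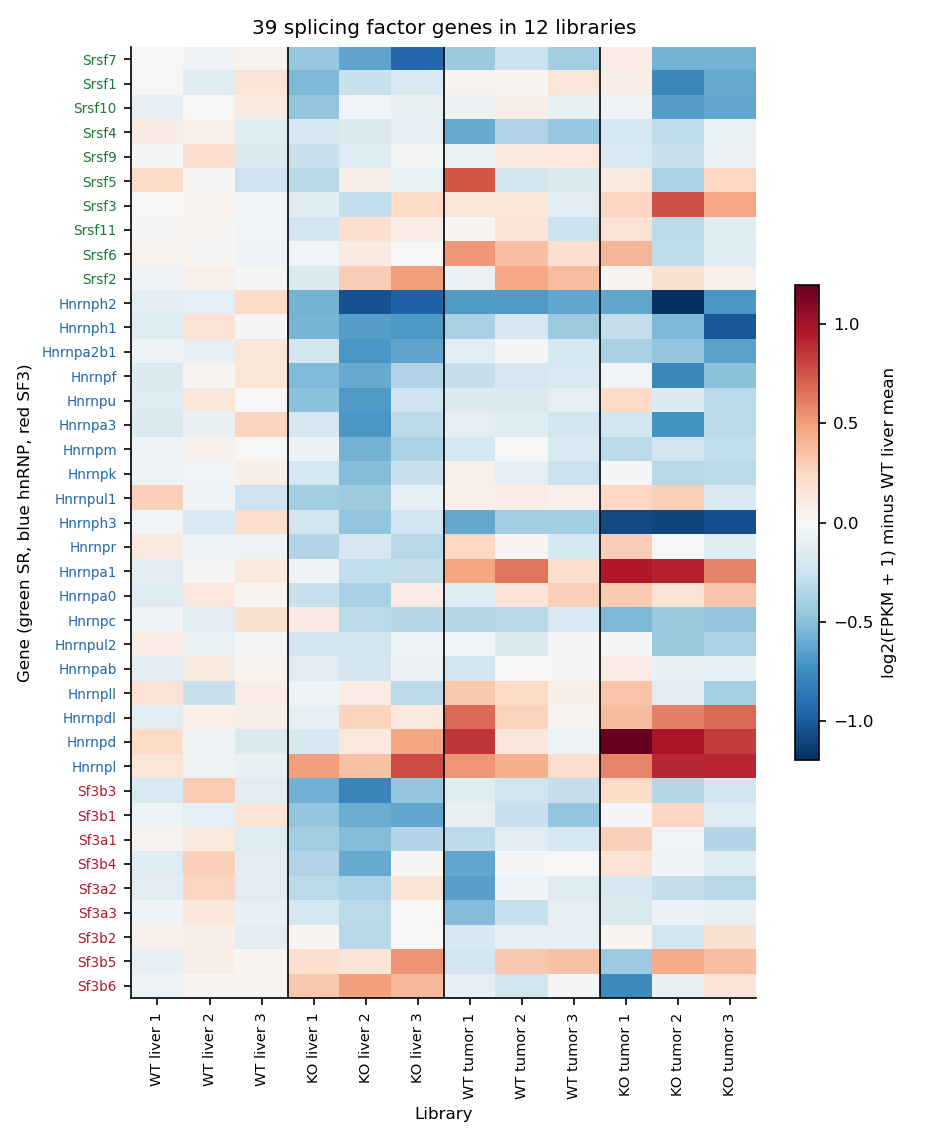
log2(FPKM + 1) of the 39 tested genes (rows, family by label colour) in the 12 libraries (columns), each minus the WT liver mean of that gene; blue is lower and red higher. Hnrnph2 is blue in all KO livers and all tumors, Hnrnph3 is bluest in the KO tumors, and Hnrnpa1, Hnrnpd and Hnrnpl are reddest there.

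Between WT tumors and WT normal liver, which share the 3 WT livers with the comparison of livers, 2 members were called, both lower in tumors, while 17.0% of all tested genes were called, 8.96% lower and 8.01% higher. Hnrnph2 stood at 13.8, 13.8 and 14.4 FPKM in WT tumors, 0.611 times the WT liver mean (-0.66 ± 0.13, adjusted p = 0.0194). Its tumor values were close together and all below the lowest WT liver. Srsf4 (chr4:131873617-131901706, plus strand), the gene of an SR protein with a long arginine and serine domain, stood at 26.4, 25.7 and 21.97 in WT liver and at 15.8, 19.0 and 17.8 in WT tumors (-0.47 ± 0.13, adjusted p = 0.0429). The antisense gene Gm12992 covers 67.9% of the exonic bases of Srsf4 and is listed at 0.0592 to 0.372 FPKM, so without strand the reads of the pair cannot be told apart. In all, 8 members lay wholly below WT liver (23.8% of all tested genes did) and 3 wholly above (18.5% of all), against 42.3% of all either way. Srsf7 (-0.37, adjusted p = 0.0518) and Hnrnph3 (-0.48, 0.0566) were next among those below, with Hnrnph1 (-0.34, 0.108), Hnrnpf (-0.22, 0.229), Hnrnpc (-0.29, 0.152) and Sf3a3 (-0.30, 0.181). Above without overlap were Hnrnpa1 (0.44, 0.0833), Hnrnpl (0.39, 0.0817) and Srsf6 (0.36, 0.0786).

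The median difference between WT tumors and WT liver was -0.10 over the members and -0.04 over all tested genes. That direction depended on the scale: after rescaling to TPM the median over all tested genes was 0.23 and over the members 0.20, and the calls were 4 higher and 0 lower. Hnrnph2 then had -0.38 (adjusted p = 0.109) and Srsf4 -0.19 (0.379). Under quantile normalization 3 were higher and 1 lower. The share of all tested genes called under either scaling is not given here, so a shift of all genes cannot be told from one of the members. Without WT liver 3 or WT tumor 2 there were 0 calls, and without WT liver 1, WT liver 2 or WT tumor 3 there was 1. KO tumor 2 is the sole library with a value above 0 for Alb, the serum albumin gene (14256 FPKM). The library sums behind the TPM values of the KO tumors thus do not all hold this gene. Those of WT tumors and WT liver all have it at 0. Whether a 0 for Alb stands for a missing value is not known here, so it is not read as lack of expression. Proliferation markers differed in the same comparison, as 16 of 17 tested were called higher and the summed FPKM of the 18 listed was 40.0 to 42.6 in WT liver and 85.9 to 99.2 in WT tumors. None was at 0 in all libraries, and their part in the members' values was not tested.

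Between KO tumors and KO normal liver, which share the 3 KO livers with the comparison of livers, 2 members were called higher (9.09% of all tested genes were) and 1 lower (5.17% of all), against 14.3% of all called either way. Hnrnpa1 (chr15:103240432-103246692, plus strand), the gene of a well known repressor of exon inclusion whose entry includes Gm5643, stood at 25.0, 20.8 and 20.95 FPKM in KO liver and at 51.2, 49.8 and 39.6 in KO tumors. Every KO tumor was above every normal liver of either genotype, and the mean was 2.11 times that of KO liver (1.04 ± 0.18, adjusted p = 0.0176). Hnrnpd (chr5:99955935-99978938, minus strand) stood at 4.39, 5.73 and 7.55 in KO liver and at 13.8, 11.1 and 10.01 in KO tumors (0.89 ± 0.22, adjusted p = 0.0395). Hnrnph3 (chr10:63014664-63024217, minus strand) stood at 9.95, 8.20 and 9.88 in KO liver and at 5.03, 4.94 and 5.13 in KO tumors, whose mean was 0.539 times the KO liver mean (-0.77 ± 0.15, adjusted p = 0.0221). In all 3 genes the groups did not overlap. That held for 11 of the 39 members, 3 below KO liver and 8 above. Among all 11671 tested genes it held for 4796, 2308 below and 2488 above. Sf3b1 was also wholly above KO liver in KO tumors (0.59 ± 0.17, adjusted p = 0.0617), and there its mean of 23.7 ± 3.7 FPKM was close to the 23.2 ± 2.5 of WT liver (SD, n = 3 each). Srsf3 stood at 23.8, 34.2 and 27.7 in KO tumors, above all KO livers (0.56 ± 0.22, adjusted p = 0.120).

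The median difference between KO tumors and KO liver was 0.07 over the members and -0.02 over all tested genes. After rescaling to TPM it was 0.49 and 0.36, with 7 calls higher and 0 lower, among them Hnrnpa1 (1.48, adjusted p = 0.0114) and Hnrnpd (1.34, 0.0252), while Hnrnph3 had -0.42 (0.211). Under quantile normalization, in contrast, Hnrnph3 had -0.85 (0.0213) and Hnrnpa1 1.21 (0.0261), both called, and Hnrnpd 0.88 (0.0543). For these scalings, too, the share of all tested genes called is not given, so a shift of all genes cannot be told from one of the members. The TPM values of KO tumor 2 alone rest on a library sum that includes Alb, as given above. With the main values and a library left out, the counts also changed. There were 0 calls without KO liver 1, KO liver 2, KO liver 3 or KO tumor 1, 2 without KO tumor 2 and 4 without KO tumor 3. Marker lists of other cells moved in the same comparison: the summed FPKM of 15 macrophage markers was 283 to 403 in KO liver and 669 to 895 in KO tumors (7 of 14 tested called higher), and that of the stellate cell and fibroblast markers 97.3 to 162.7 and 224 to 348 (5 of 12 higher). Cholangiocyte markers summed to 75.2 to 85.0 in KO liver and 276 to 3534 in KO tumors (2 of 6 tested higher), and proliferation markers to 38.7 to 44.7 and 72.0 to 205 (11 of 17 higher). Marker by marker, 10 of 14 macrophage, 8 of 12 stellate cell and fibroblast and 4 of 6 cholangiocyte differences were positive. The remaining differences in these lists were negative, and the cholangiocyte median was 0.31. All 17 proliferation differences were positive. No marker of these lists was at 0 in all libraries, and their part in the members' values was not tested. Among other splicing regulators Rbm3 (1.497, adjusted p = 0.00921), a cold-inducible RNA-binding protein gene, was called higher in KO tumors, and 0 of 32 were called lower.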

How the data were processed

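Per the labels' protocols, poly(A) RNA from 12 mouse liver and liver tumor samples was made into unstranded libraries. For each library the authors deposited FPKM values, made with TopHat2 2.1.1 and Cufflinks 2.2.1 on mm10, per the submitters' processing notes. No source used here gives the annotation or the options. FPKM divides by transcript length and by mapped fragments, so a few very abundant genes can move all others, and depth is unknown.

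From these values, log2(FPKM + 1) was tested with limma 3.58.1 in R 4.3.3 (empirical Bayes with a mean-variance trend, two-sided). Each comparison of 2 groups used its own 6 libraries, and the interaction used all 12. Entries with an FPKM of 1 or more in at least 3 libraries were tested (11671), with Benjamini-Hochberg adjustment over all of them. The added 1 understates changes of low genes. The fit was tested on simulated data. At most 0.00584% of nonzero values were identical between any 2 libraries, so none was treated as a repeat.

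Named with values in every library were up to 6 called members each way per comparison and Srsf1, Srsf2, Srsf3, Srsf5, Hnrnpa1, Hnrnpa2b1, Hnrnpk and Sf3b1; other members are given by counts or single values, and of other splicing lists the 3 with the smallest adjusted p. Some genes that this rule takes are not reported here, for reasons unrelated to their values. The members and lists were chosen with earlier results of these data known. Gene positions, lengths and overlaps come from GENCODE mouse release 21 (GRCm38, the assembly that mm10 names), matched by symbol, and promoters from RefSeq. Alternatives were pseudocounts of 0.1 and 5, no filter, a filter of mean FPKM 5, TPM, median-of-ratios and quantile scaling, 1 fit of all 12 libraries, the replicate number as a block, removal of the length trend, and leaving out each library. A fit restricted to genes with a length was added after the data were seen.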

Additional observations from a re-analysis of the deposited data

How the results depend on the processing

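Calls were few and near the threshold. The count of members called between KO and WT normal liver, 8, was 3 with no filter on low FPKM, 4 in 1 fit of all 12 libraries and 0 to 5 with a library left out (the 5 hold 4 of the 8, and Hnrnpa2b1). In tumors 1 fit of all 12 libraries called 1 member (Hnrnph3), and leaving out a library gave 0 each time. For WT tumor against liver (2 calls) TPM gave 4, quantile normalization 4 and leaving out a library 0 to 2. For KO tumor against liver (3 calls) TPM gave 7, 1 fit of all 12 libraries 6 and leaving out a library 0 to 4. For the interaction (0 calls) leaving out a library gave 0 to 2. Apart from the replicate block, the other alternatives stayed within 1.5 times of these counts, the fit restricted to genes with a length included. These counts of members stand without the share of all tested genes called under the same alternative. The causes of these shifts were not tested.

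The replicate numbers did not pair the samples: deviations of same-numbered samples correlated by -0.276 to 0.347, and not all were above 0.1. With the number as a replicate block the counts were 0 in normal liver, 0 between tumors, 1 in WT, 2 in KO and 0 for the interaction.

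Reversals of sign concerned differences that were not called. Under TPM, WT tumor against liver became 0.19 for Hnrnpa2b1, 0.20 for Hnrnpk and 0.014 for Sf3b1, and KO tumor against liver 0.31 for Srsf1 and 0.30 for Srsf2. Under quantile normalization the WT values were 0.21 for Hnrnpa2b1 and 0.16 for Hnrnpk, and the KO value of Srsf2 was 0.095. Under median-of-ratios scaling the KO value of Hnrnpa2b1 was -0.032. The interaction of Srsf5 became 0.11 under TPM, 0.0098 under quantile normalization and 0.095 with the length trend removed. Leaving out a library moved KO against WT normal liver from -0.24 to 0.0034 for Srsf5 and from -0.22 to 0.046 for Srsf3, and KO against WT tumors from -0.30 to 0.19 for Srsf5. WT tumor against liver ranged from -0.0013 to 0.15 for Srsf1 and from -0.19 to 0.29 for Srsf5. KO tumor against liver ranged from -0.36 to 0.071 for Srsf1, -0.31 to 0.020 for Srsf2, -0.067 to 0.17 for Hnrnpa2b1 and -0.020 to 0.29 for Srsf5, and the interaction of Srsf5 from -0.19 to 0.30.

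Depth is unknown, groups hold 3 samples, and a member that missed the threshold is not shown to be unchanged.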

Other observations

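Genes that act on these splicing factors, and genes of H3K36me3 readers and related chromatin proteins, were compared between KO and WT normal liver. There, 18.1% of all tested genes were called. Of 10 SR protein kinase and import genes, 2 were called higher, the CDC-like kinase genes Clk1 (0.63, limma adjusted p = 0.0446) and Clk3 (0.48, 0.0426), and 1 lower, Dyrk1a (-0.50, 0.0450). Of 6 tested genes of H3K36me3 readers and related chromatin proteins, 1 was called lower, Morf4l2 (-0.69, 0.0299), and 0 higher. Between KO and WT tumors limma called none of the genes in these 2 lists. In the list of readers and related proteins 1 gene had an unadjusted p below 0.05, as did 17.6% of all tested genes.

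Among tri-snRNP and Prp19 complex genes, 3 of 24 were called lower in WT tumors than in WT liver (8.96% of all tested genes were). They were Dhx8 (-0.56, limma adjusted p = 0.0190), Prpf4 (-0.65, 0.0207) and Prpf6 (-0.55, 0.0473). Dhx8, a helicase gene that acts in release of the spliced mRNA, was also called for a KO effect that differed between tumors and normal liver (0.76, adjusted p = 0.0402). It was the sole gene of all the splicing lists called there, while 2.08% of all tested genes were. Of 32 other splicing regulators, 2 were called higher in WT tumors than in WT liver (8.01% of all tested genes were), Tia1 (0.71, 0.0222) and Rbm3 (0.85, 0.0312). The 1 called lower (8.96% of all) was Elavl1 (-0.61, 0.0203).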
